A study of Homo sapiens with 12 samples.

Results

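Keratins and keratin-associated proteins were read from 182 probes of 150 genes, of 50599 probes on the arrays that are no controls. A probe was taken as a member when its gene name in the scanner files began with KRT or KRTAP followed by a digit, and it was called expressed when the scanner software set its well-above-background mark on 3 or more of the 12 arrays. The expressed members were thus selected on measured brightness, and how many passed is a description. In all, 105 of the 182 probes passed (57.7%), against 66.7% of all probes. Of these members 72 probes belong to 62 keratin genes and keratin pseudogenes, and 110 belong to 88 keratin-associated protein genes. Just inside the limit, on 3 arrays, lay probes of KRTAP22-1, KRTAP12-4 and KRT8P41, with signals between 2.47 and 22.3 units. Just outside it, on 2 arrays, lay probes of KRT25, KRT42P, KRTAP4-2, KRTAP10-4 and KRTAP10-7, with signals between 1.98 and 82.8 units.

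RNA came from 3 human cell lines of lung adenocarcinoma. They were A549, PC14 and PC14CDDP. The last was provided by another laboratory and carries CDDP, cisplatin, in its name, and the paper describes it as a drug-resistant line. Each line was transfected at 25 nM with pre-miR-197 (a synthetic precursor of the miRNA), with its negative control NC (AllStar-NC in the labels), with LNA-miR-197 (a locked nucleic acid inhibitor of the miRNA) or with its control LNA-NC. Each transfection of each line gave 1 array, so the 3 lines were the replicates of a transfection. PC14 is the parental line of PC14CDDP, so these 2 replicates are related. The 4 arrays of a line are cultures of that line, and p-values between lines measure only the spread between these arrays. All A549 arrays lay on slide 1 and all others on slide 2, so the slide and the difference of A549 from the other lines cannot be told apart. Each transfection took the same column of both slides, so column and transfection cannot be told apart either. On slide 2 the PC14 arrays took row 1 and the PC14CDDP arrays row 2, so row and line cannot be told apart between them. The labels name the reagents after miR-197 without giving the arm. The mature miRNA miR-197-3p, listed in RefSeq at chr1:109598940-109598961 (plus strand, GRCh38.p14), is shown with its seed of bases 2 to 8 in capitals.
hsa-miR-197-3p: uUCACCACcuucuccacccagc

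Keratins are the intermediate filament proteins of epithelial cells, built as pairs of an acidic type I and a basic type II protein. Simple keratins such as KRT8 and KRT18 form the filaments of glands, airways and other single-layered epithelia, and pathologists use KRT7 and KRT19 as markers of lung adenocarcinoma. Stratified keratins belong to layered epithelia such as skin and oral mucosa, where KRT6A, KRT6B and KRT6C are known for their induction in wounds. Hair keratins build the hair shaft, and the small cysteine- or glycine- and tyrosine-rich keratin-associated proteins (KRTAP) crosslink them there. The type I genes other than KRT18 lie on chromosome 17, the type II genes and KRT18 on chromosome 12.

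Whether a KRTAP probe was well above background went with its base composition. Of 17 KRTAP probes with at least 60% G and C bases, 17 were expressed, against 93.1% of such probes on the whole array. Between 50 and 60% the share was 32 of 39 (82.1%, whole array 83.7%), and between 40 and 50% it was 10 of 28 (35.7%, whole array 64.8%). Below 40%, only 2 of 26 KRTAP probes were expressed (7.69%, whole array 59.2%). Among the 19 KRTAP genes with several probes, 10 had probes on both sides of the limit, and 7 had a probe well above background on all 12 arrays beside one that was so on none. Among the 8 keratin genes with several probes, 1 was split in this way and 0 had a probe on all arrays beside one on none. Whether a KRTAP gene was called expressed thus depended on which probe read it, and the part of base composition in these signals was not tested.

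The first 30 bases of the 60-base probes of 4 such genes are shown in pairs, G and C in capitals, because each pair reads 1 gene name and gave opposite answers. All 8 are placed by the files on the minus strand of chromosome 17 (hg19). The expressed probes were well above background on all 12 arrays and the silent ones on 0.
KRTAP1-3, expressed, chr17:39190589-39190648: CtGCtGCCGCCCatCCtaCtGtGGaCaGtC
KRTAP1-3, silent, chr17:39190407-39190466: tttCtttGtCtttCttatGGGGGttaCCaa
KRTAP2-4, expressed, chr17:39221320-39221369: aGCCCtGCtGCCGCCCGGtGtGCtGCGaCC
KRTAP2-4, silent, chr17:39221465-39221524: CCttaGtCattatGGataGtaaatCGaCCt
KRTAP3-3, expressed, chr17:39150053-39150112: CtCaaCCtCaCCaCCttCaCtCaGCCCtGC
KRTAP3-3, silent, chr17:39149727-39149786: GGtGGtttGGGaattCtGttttCaGtCttG
KRTAP4-8, expressed, chr17:39254270-39254329: aCtCCtGttGtGGCtCCGtGtGCtCtGaCC
KRTAP4-8, silent, chr17:39253413-39253472: aGaatatCCttCCCaattaGGtaCaCatta

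The expressed KRTAP1-3 probe (65% G and C) gave 1542 to 7589 units, and the silent one (35%) 1.89 to 3.24. For KRTAP2-4 the probes had 75% and 40% G and C and gave 5620 to 14462 and 1.89 to 4.85 units. For KRTAP3-3 (60% and 38.3%) the ranges were 3158 to 44473 and 2.45 to 6.18 units. For KRTAP4-8 (60% and 35%) they were 41.4 to 156 and 2.12 to 6.61 units. In addition, 15 KRTAP probes and 5 keratin probes shared a run of at least 20 identical bases with a probe listed under another name. Among them were KRTAP5-10 with KRTAP5-11 and KRTAP4-7 with KRTAP4-8, the latter by the expressed KRTAP4-8 probe shown above. For most of the keratin probes the other name was a probe or transcript identifier, which may stand for the same gene. The part of shared signal was not tested.

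The simple keratins separated A549 from both other lines. KRT7 gave 266880, 256207, 249719 and 255431 units in A549 (in the order pre-miR-197, NC, LNA-miR-197 and LNA-NC, which is kept below), 4267, 3766, 3485 and 4113 in PC14, and 4000, 3925, 3124 and 4095 in PC14CDDP. Every A549 array was above every array of the other lines, and the ranges of PC14 and PC14CDDP overlapped. On the log2 scale relative to each array's 75th percentile, the KRT7 difference of PC14 from A549 was -6.09 (SE 0.08, 68.1-fold, limma adjusted p = 8.46e-10) and the gene did not pass the test between PC14CDDP and PC14 (difference 0.03, SE 0.08, limma adjusted p = 0.772).

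KRT19, the smallest type I keratin, took a different level in each line. Its signals were 8020, 8260, 14782 and 9464 units in A549, 348, 464, 449 and 638 in PC14, and 46.2, 145, 97.4 and 160 in PC14CDDP. The 3 lines did not overlap. KRT19 fell by 4.45 log2 units from A549 to PC14 (SE 0.30, limma adjusted p = 3.91e-06) and by a further 2.12 from PC14 to PC14CDDP (SE 0.30, 4.35-fold, limma adjusted p = 0.000557). The pseudogene KRT19P2 followed, with 305 to 534 units in A549, 20.3 to 25.9 in PC14 and 4.39 to 16.4 in PC14CDDP, where 1 of 4 arrays was well above background.

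KRT8 and KRT18, which pair with each other in simple epithelia, were bright on all 12 arrays and differed less. KRT18 gave 167309 to 247184 units in A549, 100116 to 147440 in PC14 and 92125 to 146016 in PC14CDDP. A549 lay above both other lines without overlap, and PC14 and PC14CDDP overlapped. The fall from A549 to PC14 was 1.83-fold for KRT18 (log2 difference -0.87, SE 0.15, limma adjusted p = 0.000919) and 2.81-fold for KRT8 (log2 difference -1.49, SE 0.17, limma adjusted p = 0.000101). The 3 KRT8 probes disagreed, with PC14 minus A549 differences of -1.49, -2.24 and -0.08, and the last of them is placed at chr12:53343241-53343300, closer to the KRT18 probe at chr12:53346116-53346554 than to the other KRT8 probes. The pseudogenes KRT18P55 and KRT8P12 had PC14 minus A549 differences of -0.92 and -1.33, beside -0.87 and -1.49 for KRT18 and KRT8, and whether their probes read those parents was not tested. KRT20, of intestinal epithelium, was well above background on 0 arrays.

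**Figure D1:**
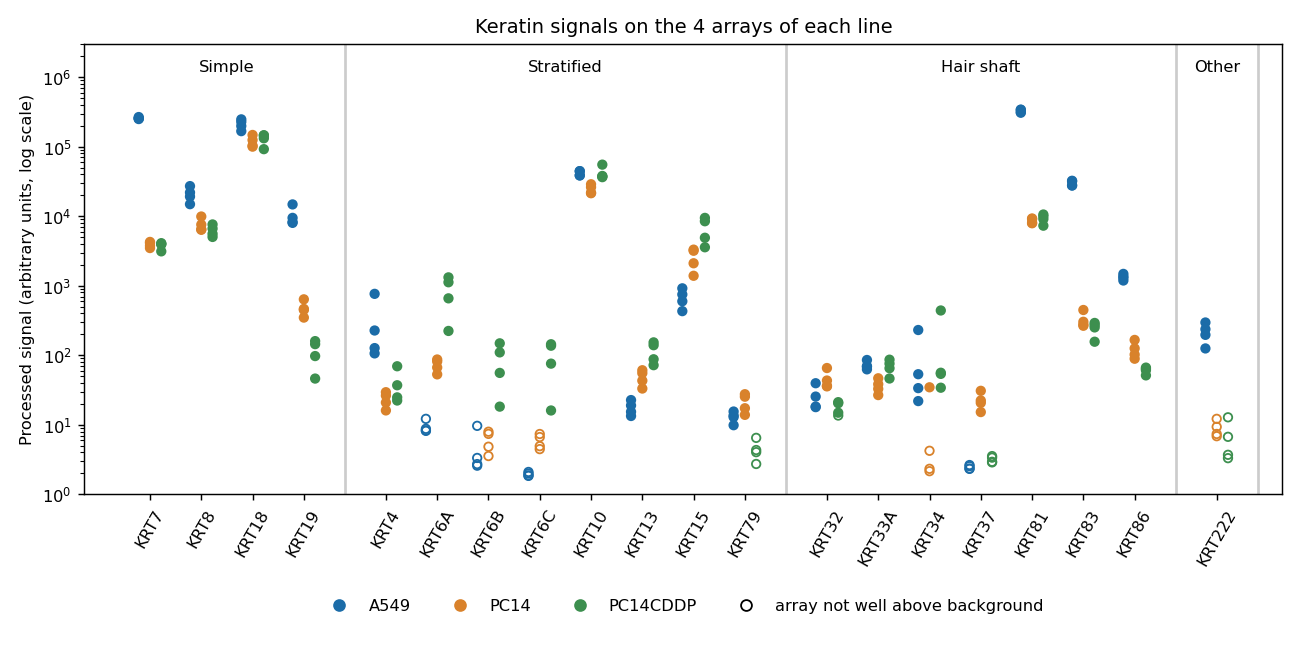
Processed signals (vertical axis, arbitrary units on a log scale) of simple, stratified, hair shaft and other keratins on the 4 arrays of A549, PC14 and PC14CDDP, 1 point per array, open where the probe was not well above background. KRT7, KRT81 and KRT83 stand apart in A549, and KRT6B and KRT6C rise above background in PC14CDDP alone of the 3 lines. Heights of different keratins are not comparable, since each has its own probe.

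Beside the simple keratins, A549 carried type II hair keratins whose genes adjoin one another on chromosome 12. The KRT81 probe (chr12:52679699-52679758) gave 341521, 314462, 307752 and 337531 units in A549, 9279, 8042, 7920 and 9109 in PC14 and 9970, 9118, 7308 and 10582 in PC14CDDP. All lines were well above background, with no overlap between A549 and the others. The log2 difference of KRT81 from A549 was -5.29 in PC14 (SE 0.07, 39.2-fold, limma adjusted p = 1.32e-09) and -5.11 in PC14CDDP (SE 0.07, 34.6-fold, limma adjusted p = 1.36e-09).

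KRT83 was read by a probe at chr12:52709702-52709761 and another at chr12:52710677-52710736. The first gave 32338, 27679, 27706 and 31832 units in A549, 448, 276, 266 and 303 in PC14 and 273, 252, 157 and 292 in PC14CDDP. By this probe KRT83 fell 97.4-fold from A549 to PC14 and 123-fold to PC14CDDP (limma adjusted p = 7.01e-09 and 4.84e-09). The other probe gave 6684 to 8168 units in A549 and was below the detection limit on all 8 arrays of the other lines, which sets its A549 level at least 847-fold above PC14 and at least 641-fold above PC14CDDP. Both probes gave the same direction, and they disagreed on whether any KRT83 signal remained in PC14.

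KRT86 (chr12:52702840-52702897) gave 1189 to 1480 units in A549, 89.2 to 166 in PC14 and 51.4 to 66.4 in PC14CDDP, 3 ranges without overlap. It was the hair keratin of this stretch that also fell from PC14 to PC14CDDP and passed the test (log2 difference -0.88, SE 0.16, limma adjusted p = 0.00248). KRT85, next to them at chr12:52754424-52754483, went from 162 to 182 units in A549 to 134 to 157 in PC14, a fall of 0.32 log2 units (SE 0.09, limma adjusted p = 0.015). These paralogous genes are close in sequence, and how much of the signal of one probe came from the RNA of a neighbour was not tested.

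The other hair keratins that differed are type I. KRT37 was well above background only on the PC14 arrays, at 15.2, 22.4, 20.7 and 30.8 units, which is at least 2.23-fold above A549 and at least 1.82-fold above PC14CDDP. KRT32 gave 35.7 to 65.5 units in PC14, at most 39.6 in A549 and 13.6 to 21.2 in PC14CDDP, and passed the test between PC14CDDP and PC14 (log2 difference -1.27, SE 0.25, limma adjusted p = 0.00351). KRT33A lay between 62.7 and 85.5 units in A549, 26.8 and 46.7 in PC14 and 46.3 and 86.4 in PC14CDDP, and was 1.99-fold higher in PC14CDDP than in PC14 (limma adjusted p = 0.000761).

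Among the stratified keratins some were higher outside A549 and some lower, and the KRT6 genes were highest in PC14CDDP. KRT6A gave 1122, 1320, 224 and 659 units in PC14CDDP and 66.7, 53.1, 87.0 and 81.5 in PC14, and was well above background on 0 of the 4 A549 arrays. PC14CDDP lay above PC14 without overlap, by 3.35 log2 units (SE 0.47, 10.2-fold, limma adjusted p = 0.000579), and at least 70.7-fold above A549. PC14 in turn was at least 6.93-fold above A549 (limma adjusted p = 0.000729), a call lost under normexp background correction (limma adjusted p = 0.056).

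The neighbouring genes KRT6B and KRT6C were well above background on the 4 PC14CDDP arrays and on no array of PC14 or A549, so they entered the test only through the line where they were high and their values are a description. KRT6B gave 149, 110, 18.3 and 55.7 units there, at least 7.45-fold above PC14. KRT6C gave 137, 144, 16.1 and 75.8 units, at least 8.27-fold above PC14. In all 3 KRT6 genes the LNA-miR-197 array was the lowest of the PC14CDDP arrays and the LNA-NC array the next. The 3 are not counted as independent genes. Their probes shared no run of 20 bases with a probe of another name. How much of the KRT6B and KRT6C signal came from KRT6A RNA was not tested. KRT5 and KRT14, the keratins of basal cells, were not expressed under the rule.

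KRT13 and KRT15, type I keratins of mucosa and of basal cells, rose from A549 to PC14 to PC14CDDP. KRT15 gave 598, 431, 918 and 750 units in A549, 1391, 2105, 3186 and 3306 in PC14 and 3575, 4899, 9459 and 8465 in PC14CDDP. The lines did not overlap, and the steps were 3.52-fold (SE 0.21 on the log2 scale, limma adjusted p = 9.46e-05) and 2.75-fold (SE 0.21, limma adjusted p = 0.000637). KRT13 went from 13.4 to 22.7 units in A549 to 33.2 to 60.9 in PC14 and 72.0 to 153 in PC14CDDP, again without overlap, with steps of 2.63-fold and 2.43-fold (limma adjusted p = 7.58e-05 and 0.000259).

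Not every stratified keratin took this order. KRT4, of mucosa, was brightest in A549, with 127, 106, 765 and 227 units, against 16.1 to 29.4 in PC14, and fell 10.0-fold to PC14 (limma adjusted p = 0.000334). KRT10, of the upper layers of the skin, was bright on all 12 arrays, with 38509 to 44457 units in A549, 21415 to 28823 in PC14 and 36462 to 55180 in PC14CDDP, so that PC14 alone lay lower (PC14CDDP against PC14, 1.78-fold, limma adjusted p = 0.000786). KRT79 was well above background on the arrays of A549 (9.86 to 15.5 units) and PC14 (13.9 to 27.5) and on none of PC14CDDP, which sets PC14 at least 1.71-fold above PC14CDDP. The keratin-like gene KRT222 had the reverse of the KRT6 pattern, with 125 to 296 units in A549 and none of the 8 other arrays well above background, at least 21.8-fold below in PC14 and at least 17.3-fold below in PC14CDDP.

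Over all members, 89 genes had a probe that entered the test, 4 of them (KRT6B, KRT6C, KRT37 and KRT222) through a single line. In PC14 against A549, 59 of them were lower (66.3%, where 35.8% of all 24856 genes tested were) and 7 were higher (7.87%, all genes 32.4%). The higher ones included KRT37, which entered through PC14 alone, and KRT6C, well above background on 0 arrays of either line. KRT222, a lower one, entered through A549 alone. The calls of KRT37, KRT6C and KRT222 are a description. The lower ones were 4 of 4 simple, 6 of 13 stratified and 8 of 11 hair shaft keratins, 3 of 4 keratins of the inner root sheath and companion layer, both other keratins, 5 of 6 pseudogenes and 31 of 49 KRTAP genes. The median log2 difference was -0.59 over the members and -0.08 over all genes. In PC14CDDP against A549, 53 were lower (59.6%, all genes 36.4%) and 5 were higher (5.62%, all genes 34.0%). These 5 were all stratified, namely KRT6A, KRT6B, KRT6C, KRT13 and KRT15. Of these, KRT6B and KRT6C entered through PC14CDDP alone, so their calls are a description. So is the call of KRT222 as lower, which entered through A549 alone.

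PC14 and PC14CDDP shared slide 2 but lay in different rows of it. In PC14CDDP against PC14, 11 members were higher (12.4%, all genes 25.1%) and 10 were lower (11.2%, all genes 23.3%), with medians of 0.00 over the members and 0.04 over all genes. With no filter on dim probes the counts were 26 higher and 10 lower, and with probes well above background on all 12 arrays 7 and 6. The higher ones were 6 stratified keratins (KRT6A, KRT6B, KRT6C, KRT10, KRT13 and KRT15), 2 hair keratins (KRT33A and KRT34) and 3 KRTAP genes. Of the called genes, KRT6B and KRT6C entered through PC14CDDP alone and KRT37, a lower one, through PC14 alone. Their calls are a description. Most KRTAP genes, 43 of 49, did not pass the test, which 12051 of all 24856 genes passed. All 49 KRTAP differences were smaller than 1 on the log2 scale.

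Among the KRTAP genes the falls from A549 to PC14 past 2 on the log2 scale included KRTAP19-2, KRTAP19-8, KRTAP23-1 and KRTAP3-3. KRTAP19-2, of the glycine- and tyrosine-rich kind, gave 1161, 1074, 925 and 977 units in A549, 81.3, 53.9, 64.7 and 58.8 in PC14 and 98.1, 61.7, 57.5 and 65.0 in PC14CDDP. A549 did not overlap the others, and the fall to PC14 was 16.6-fold (log2 difference -4.06, SE 0.09, limma adjusted p = 1.18e-08). KRTAP19-8 fell 8.04-fold, from 213 to 384 units to 28.1 to 45.7 (limma adjusted p = 7.43e-08), and KRTAP3-3, of the high-sulfur kind, fell 5.33-fold by its expressed probe (limma adjusted p = 4.14e-06). KRTAP23-1 fell 6.27-fold, from 139 to 183 units to 18.4 to 41.5 (limma adjusted p = 4.25e-05). In the same subfamily as KRTAP19-2, KRTAP19-5 gave 774 to 928 units in A549 and 955 to 1387 in PC14. KRTAP4-1 had a probe with 10 spots per array that gave 55.8, 55.1, 122 and 58.0 units in A549 and was above background nowhere else, at least 7.86-fold over PC14, while its other probe fell 2.11-fold. Smaller steps between PC14CDDP and PC14 that passed the test were rises of KRTAP19-1, KRTAP19-7 and KRTAP6-2 and falls of KRTAP3-3, KRTAP6-3 and KRTAP12-2, from 1.24-fold to 1.72-fold. The calls of KRTAP12-2 and KRTAP6-3 were lost without the NC arrays or without the LNA-NC arrays (limma adjusted p up to 0.118 and 0.0704), and that of KRTAP12-2 also under quantile normalization.

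Transfection with pre-miR-197 changed no member that passed the test. Of 89 members tested against NC, 0 were higher (all genes 0.0805%) and 0 were lower (all genes 0.137%), with 8 at an unadjusted p under 0.05 (8.99%, all genes 16.2%). LNA-NC against NC gave 0 members in either direction (all genes 0.632%) and 15 at an unadjusted p under 0.05 (16.9%, all genes 13.8%). The contrast of pre-miR-197 minus that of LNA-miR-197 gave 0 members (all genes 0.117%) and 8 unadjusted (8.99%, all genes 18.1%). KRT7, KRT8, KRT18 and KRT19 had differences between -0.80 and 0.32 after pre-miR-197 and between -0.24 and -0.15 after LNA-miR-197, none past the test.

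After LNA-miR-197, 1 member was higher than with LNA-NC (1 of 89, all genes 3.88%) and 0 were lower (all genes 3.85%). This was KRT34, a type I hair keratin (probe chr17:39534018-39534077). Its signals were 53.4, 21.9, 231 and 33.7 units in A549, 2.33, 2.15, 34.6 and 4.23 in PC14 and 56.1, 34.1, 441 and 54.0 in PC14CDDP. The LNA-miR-197 array was the highest of each line, and it was the only PC14 array on which KRT34 was well above background.

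Against LNA-NC the ratio was 6.73-fold in A549, 8.93-fold in PC14CDDP and at least 3.75-fold in PC14, where the control was below the detection limit. The fitted log2 difference was 2.97 (SE 0.31, limma adjusted p = 0.00977), higher in 3 of 3 lines, PC14 and PC14CDDP being related. Leaving out a line kept a difference between 2.88 and 3.08 but ended the call, with limma adjusted p of 0.0777 without A549, 0.104 without PC14 and 0.203 without PC14CDDP. These smaller fits called hardly any gene, 0, 2 and 0 of 24856, where 1922 were called with all lines. The loss of the call is therefore not particular to KRT34. Under normexp background correction the difference was 1.45 (limma adjusted p = 0.0126). In a fit of only the LNA-miR-197 and LNA-NC arrays KRT34 did not pass (limma adjusted p = 0.208), and 0 of all 24856 genes did. With pre-miR-197, KRT34 differed from NC by 0.61 (SE 0.31, limma adjusted p = 0.379). The contrast of pre-miR-197 minus that of LNA-miR-197 was -2.36 (SE 0.44, limma adjusted p = 0.0826) and did not pass.

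KRT34 was also higher in PC14CDDP than in PC14 (limma adjusted p = 1.13e-05), with 4 of 4 PC14CDDP arrays and 1 of 4 PC14 arrays well above background. Because 3 PC14 arrays were below the detection limit the size of this rise depended on the background correction, 4.06 log2 units as fitted and 1.27 under normexp. The neighbouring hair keratin probes did not share the response to the inhibitor in these values. KRT31 gave 69.1, 43.9 and 38.8 units on the LNA-miR-197 arrays of A549, PC14 and PC14CDDP against 54.3, 71.3 and 73.3 on the LNA-NC arrays, and KRT33A gave 69.7, 38.4 and 46.3 against 68.4, 32.9 and 65.1. KRTAP2-3, which the scanner files list under LOC730755 and which is therefore no member, gave 8.74, 508 and 388 units on the LNA-miR-197 arrays against 8.65, 68.6 and 330 on the LNA-NC arrays, a log2 difference of 1.07 (SE 0.93, limma adjusted p = 0.505) that rested on PC14.

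**Figure D2:**
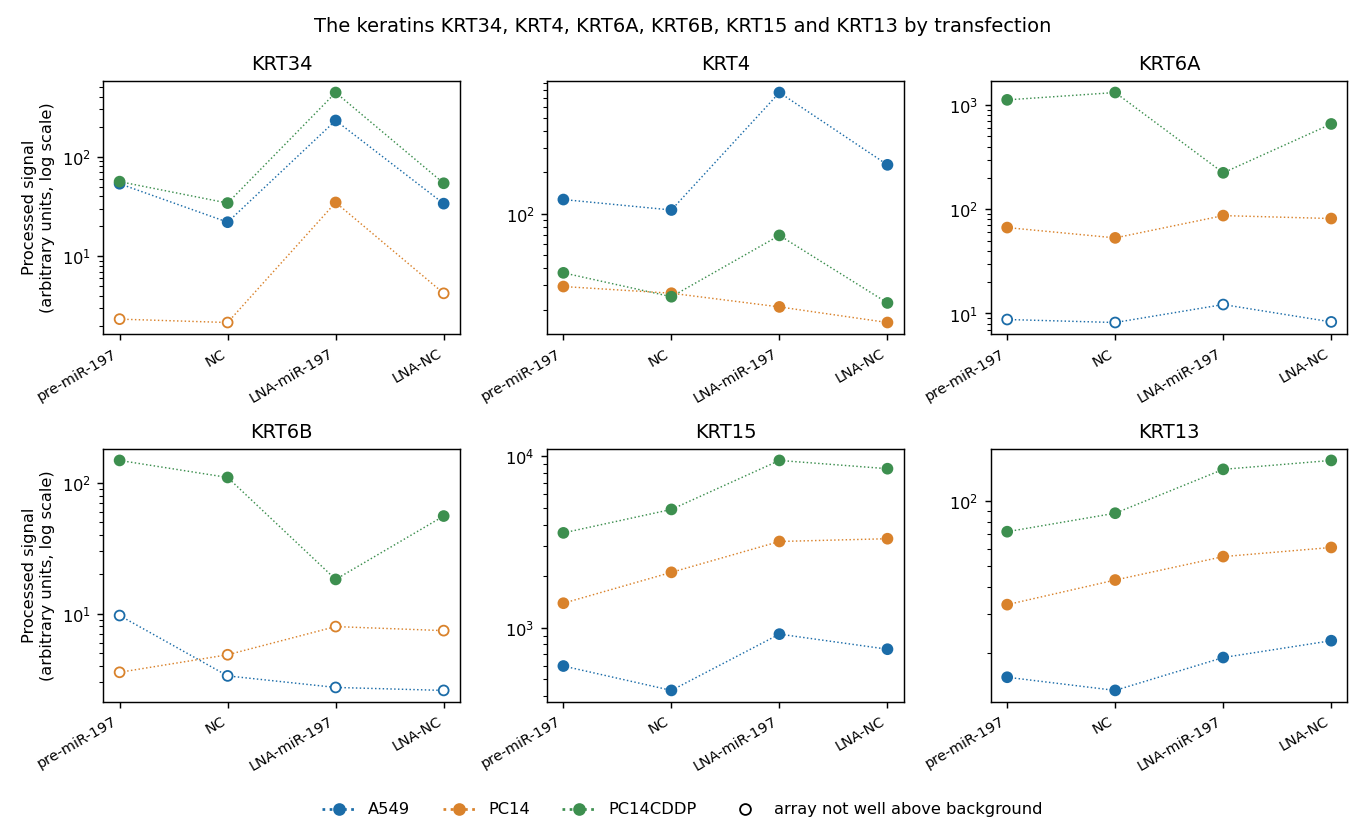
Processed signals (vertical axes, arbitrary units on log scales) of KRT34, KRT4, KRT6A, KRT6B, KRT15 and KRT13 by transfection (horizontal axes), 1 point per array, joined within each line and open where not well above background. KRT34 peaks on the LNA-miR-197 array of each line, KRT6A and KRT6B dip there in PC14CDDP, and KRT15 and KRT13 lie higher on both LNA arrays than on the other arrays in each line.

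Other responses were seen in some lines and did not pass the test. KRT4 gave 765 units on the A549 LNA-miR-197 array against 227 with LNA-NC and 69.5 against 22.3 in PC14CDDP, but 20.9 against 16.1 in PC14 (fitted log2 difference 1.28, SE 0.55, limma adjusted p = 0.179). KRT6A was 224 units with LNA-miR-197 and 659 with LNA-NC in PC14CDDP, but 87.0 and 81.5 in PC14, and the fitted difference of -0.28 did not pass (SE 0.55, limma adjusted p = 0.787). KRT15 was higher on LNA-NC than on NC arrays in all 3 lines, by 0.69, 0.52 and 0.70 log2 units, and KRT13 by 0.66, 0.37 and 0.72, with fitted differences of 0.64 (limma adjusted p = 0.298) and 0.58 (limma adjusted p = 0.202).

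Genes that anchor, accompany or control keratins were compared by list. In PC14CDDP against PC14, 9 of 14 tested desmosome and linker genes were lower (all genes 23.3%) and 0 were higher (all genes 25.1%), with a median of -0.90 against 0.04 over all genes. They included DSP (desmoplakin, which ties keratin to the desmosome), at -3.83 (SE 0.11, limma adjusted p = 1.92e-07), and PPL (periplakin) at -3.44. In PC14 against A549 the same list of 14 had 4 higher (all genes 32.4%) and 4 lower (all genes 35.8%), both below those shares. JUP (plakoglobin) stood there at -3.70 (SE 0.20). Of 13 other intermediate filament genes, 3 were higher (all genes 25.1%) and 8 lower (all genes 23.3%) in PC14CDDP than in PC14. The lower ones included INA (alpha-internexin) at -6.31, BFSP1 (filensin, of the lens) at -2.25 and PRPH (peripherin) at -2.24. Cornified envelope genes gave 2 higher and 3 lower of 11 in that comparison, and transcription factors of keratin genes 5 higher and 4 lower of 17, the latter near the shares of all genes. The factors included LEF1, a factor of hair follicle formation, at 4.69 (SE 0.14). After LNA-miR-197, 4 genes of these and the marker lists passed, where 3.88% of all genes were higher and 3.85% lower. The lists of this paragraph held 14, 13, 11 and 17 tested genes, and the marker lists further ones. The 4 calls are therefore read singly and give no result about a list. NEFH (1.34, well above background on 5 of 12 arrays) and KLF5 (0.79) were higher. TCHH (trichohyalin, of the inner root sheath, -0.64) and COL1A1 (-1.04) were lower.

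The lines were checked against cell type markers. The epithelial list of 10 genes holds the 4 simple keratins described above, so only its 6 other genes are read here. They were well above background on all 4 arrays for 6 genes in A549, 4 in PC14 and 2 in PC14CDDP. In PC14 against A549, 5 of these 6 were lower and 1 was higher (all genes 35.8% and 32.4%). CDH1 (E-cadherin, well above background on 2 of 4 PC14 arrays) stood at -6.10 (SE 0.28) and ELF3 at -6.32 (SE 0.40), and CLDN4, a claudin of tight junctions, was the higher one at 6.06 (SE 0.26). Of 8 lung alveolar markers, 5, 5 and 4 were well above background on all arrays of A549, PC14 and PC14CDDP. Among squamous and basal markers 4 of 8 were tested, and their differences between lines are not given here. KRT5 and KRT14 of that list, as above, were not expressed. Of 8 fibroblast markers 2 were tested, ACTA2 and COL1A1, both lower in PC14 than in A549 (-5.72 and -2.50), while the leukocyte list gave 2 higher and 2 lower of 5 tested and the endothelial list 1 higher and 1 lower of 3 (medians -0.11 and -0.08). The part of these markers in the keratin differences was not tested.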

How the data were processed

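RNA of 12 cultures was labelled with Cy3 and hybridised to 1-colour Agilent arrays. The authors deposited scanner intensity values made with Agilent Feature Extraction 10.7.3.1, whose processed signal is background-subtracted and not scaled between arrays, and a value table equal to the processed signal on all 62976 spots of each array. Probe coordinates are those of the files (hg19). The paper's methods give no scaling for them and name Student's t-test as the main test of the study, run here as the methods' t-test, paired by line.

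Here the log2 processed signal was taken without outlier spots, averaged over the spots of a probe, and set relative to the array's 75th percentile (613 to 719 units). Probes well above background on 3 or more arrays were kept, and the probe with the highest mean stood for a gene (24856 genes). The scaled values were fitted with limma 3.58.1 (R 4.3.3) with transfection and line as terms, and adjusted p (Benjamini-Hochberg over all genes) under 0.05 was called. The line was the block that pairs the transfections, since the same line received all 4. Deviations of arrays of 1 line correlated at 0.848 to 0.949. The script was tested on simulated data.

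On each array 55.8% to 63.0% of probes passed the background mark, and 0 spots were saturated. The number of arrays limits the precision. Where a probe was above background on no array of a group, the fold is a bound against the lowest signal well above background (7.61 to 13.1 units). Of the probes, 28174 (55.7%) matched RefSeq (GRCh38.p14), and other gene names are those of the files. Probes missing on an array (106, among them those of KRTAP4-4 and KRTAP10-6) were left out. Keratins were sorted into classes by textbook expression. The members, named genes, lists and probe sequences were chosen with earlier results of these data known. Named were a fixed set of 34 genes and, in each other list, at most 4 called genes with the largest change. Further members (KRT31, KRT80, KRT85, KRT39, KRT18P55, KRT8P12, KRTAP2-1, KRTAP6-2, KRTAP11-1, KRTAP19-5 and KRTAP23-1) were added after their values were seen. Alternatives changed the background correction, scaling, filter, probe rule, variance prior, block, arrays used and test, and left out each line or transfection.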

Additional observations from a re-analysis of the deposited data

Results flagged for a closer look

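In 68 groups of 4 arrays, each the arrays of 1 line for a named gene well above background on all of them, 7 held an array far from the others by Dixon's ratio of gap to range. Chance alone marks about 1 in 20 groups, and the named genes were chosen largely by their calls in these data. Levels are log2 relative to the array's 75th percentile.

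Of the 7, 3 were LNA-miR-197 arrays of PC14CDDP. KRT34 stood there at -0.48 against -3.63 on the next array (ratio 0.846). KRT10 stood at 6.49 against 5.85 (ratio 0.853), and KRT18 at 7.23 against 7.69 (ratio 0.866). The other arrays of PC14CDDP so marked were pre-miR-197 for KRTAP19-2, at -2.85 against -3.36 (ratio 0.895), and NC for KRTAP2-3, at -3.06 against -1.02 (ratio 0.849). In A549 the LNA-miR-197 array gave KRT19P2 at -0.40 against -1.02 (ratio 0.868), and the pre-miR-197 array gave KRT33A at -2.91 against -3.34 (ratio 0.950).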

How the results depend on the processing

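The call of 1 member after LNA-miR-197 against LNA-NC held under quantile normalization, normexp, the deposited table, no filter and the mean of probes. The deposited table equals the processed signal, so that setting repeats the main fit. KRT34 has 1 probe, so no filter and the mean of probes left its difference at 2.97 and could change only its adjusted p. The count became 0 when only probes well above background on all 12 arrays were kept (63 members, KRT34 not among them), with slide in place of line, in a fit restricted to the arrays compared and with the methods' t-test. Without the replicate block of line it was 0 too, and leaving out any line gave 0 to 0. Over all genes the calls fell as well, from 1922 to 7 with slide in place of line and 3 without the block. Without a line 0 to 2 genes were called, and the restricted fit and the methods' t-test called 0. With a trended robust prior the count of members was 2, KRT34 and KRT81 (-0.26, adjusted p = 0.0271). The KRT34 difference ran from 1.45 (normexp) to 3.08. LNA-NC against NC went from 0 to 2 members under the filter on all 12 arrays, KRT39 at -0.86 and KRTAP2-1 at -0.68. The difference of both contrasts went from 0 to 1 (KRT34) with the trended robust prior (adjusted p = 0.0324). PC14CDDP against PC14 gave 36 members (26 higher, 10 lower) with no filter and 13 (7 higher, 6 lower) under the filter on all 12 arrays. PC14 against A549 gave 53 to 66 members, with 8 higher and 45 lower under quantile normalization, and PC14CDDP against A549 gave 47 to 58. Without the filter the median of all genes was -0.13 for PC14 against A549 and 0.14 for PC14CDDP against PC14. The named genes were chosen largely by their calls in these data, and the deposited table repeats the main values, so the tally over them is a description. Over named genes and settings, 1237 values kept their direction and their side of the threshold (or, where not called, any direction), 68 lost the call, 7 gained it and 1 turned, KRTAP19-1 in PC14CDDP against A549 (0.073 under quantile normalization, -0.21 as reported). The cause was not tested where construction does not show it. The 3 lines per transfection and dim probes limit what can be seen.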

Other observations

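KRTAP11-1, chosen after its values were seen, gave 285 units on the PC14CDDP LNA-miR-197 array and 23.9 to 59.0 on the other 11 arrays. Its log2 ratio of LNA-miR-197 to LNA-NC was 3.23 in PC14CDDP, 0.14 in PC14 and -0.49 in A549. KRT80, chosen in the same way, gave 4273 to 8019 units in A549, 723 to 1391 in PC14 and 971 to 1857 in PC14CDDP, a fall of 2.49 log2 units from A549 to PC14 (SE 0.24, limma adjusted p = 3.50e-05).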
